A study of Mus musculus with 9 samples.

Results

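Uterine horns of mice that received CRC transplantation after a mechanical injury were compared with those of mice that had the injury alone. The libraries were taken by their labels, 3 labelled CRC and 3 labelled injury, which are 6 of the 9 libraries of the series. The other 3 came from sham-operated mice. They entered the fit, where they also bore on which features were tested, on the scaling and on the estimated spread between replicates. Their levels are given as a reference. All mice were wild-type C57BL females of 8 weeks at the start, and each library came from 1 mouse on day 7. In both groups the lining was scraped by 10 strokes of a rotating 27-gauge needle. The injury group then received 50 μL of PBS and the CRC group the same volume of a CRC suspension. CRCs, conditionally reprogrammed cells, are mouse endometrial epithelial cells kept dividing in culture on irradiated fibroblast feeder cells. The counts hold no marker that tells transplanted cells from those of the host, so which mice received cells rests on the labels alone. The comparison asks how transcripts of the injured uterus differed when cells had been given.

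RNA was depleted of ribosomal RNA and sequenced, and the deposited values are whole counts on each of 55228 named features, which are genes and non-coding transcripts. The libraries labelled injury held 290684, 280886 or 282937 counts on features, and those labelled CRC held 288619, 289964 or 290833. These were between 0.776% and 0.833% of the records of a library, so that depth per feature was low. With these totals and the TMM scaling factors, which correct library size for composition, 1 count was worth 3.71 to 3.76 CPM (counts scaled to a common library size) in the injury libraries and 3.26 to 3.29 CPM in the CRC libraries. The number of features with at least 1 count was 9343, 9100 and 9483 in the injury libraries and 10151, 9766 and 10023 in the CRC libraries. Replicates differed by more than sampling noise, since chi-square per degree of freedom was 2.45 to 3.41 between injury libraries and 2.2 to 2.63 between CRC libraries. Intervals and floors from counts cover counting error only, because PCR copies of a molecule were not told apart.

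A feature is named as the authors named it, but in many cases its exons run across those of a gene on the other DNA strand. Such a feature is called here the feature opposite that gene, and positions are those of GENCODE M21 on GRCm38. Of the features that could be placed, 16.6% overlapped an exon on the other strand, and these held 78.2% of the counts of the 6 libraries. Transcripts that are abundant in most tissues were almost uncounted, with 2 counts on Actb, 61 on Gapdh and 34 on Eef1a1 over the 6 libraries. Whether counting used the strand is not given in the sources used here and was not tested. Which gene of an overlapping pair the reads on a feature came from can therefore not be told. Counts within a pair can differ widely, with means over the 6 libraries of 12082 on Gm48529 and 15.0 on Tagln, which it overlaps. Few counts on a feature thus need not mean few transcripts of the gene of that name. The feature Gm13032, for example, has 1200 exonic bases in common with Padi1 and Rccd1 has 911 in common with Prc1, as the maps of exons show. Actr8 shares 141 bases with Il17rb, 1 exon of which lies within its last exon.

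**Figure D1:**
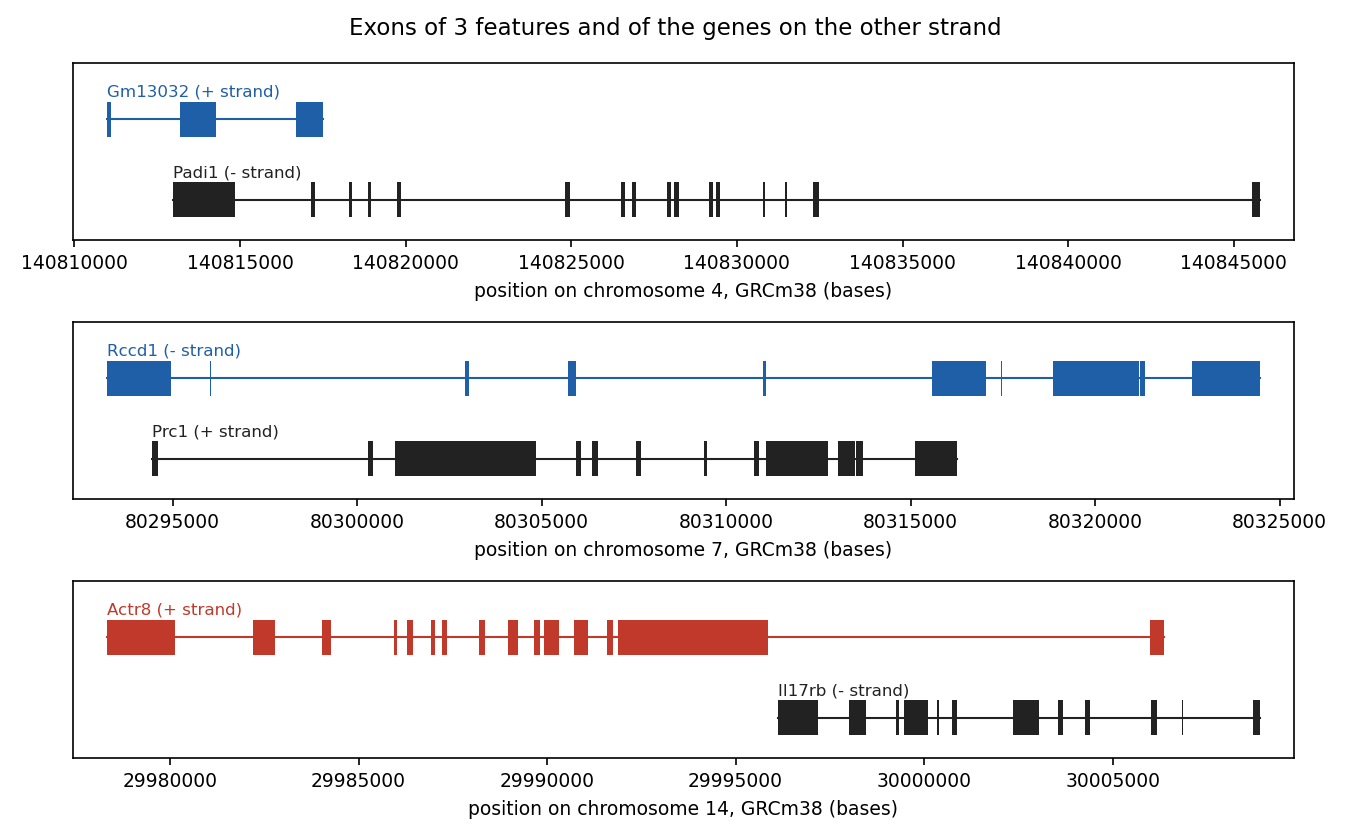
Exons of 3 features (upper track of each map) and of the gene on the other strand (lower track), drawn to scale along the chromosome of GRCm38 in bases. Gm13032 lies across the end of Padi1, Rccd1 runs across much of Prc1 and the last exon of Actr8 covers 1 inner exon of Il17rb.

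The endometrium consists of an epithelium with glands and of a stroma of fibroblasts, and it is wrapped by smooth muscle. Oestrogen drives epithelial division and progesterone restrains it, and after a wound the epithelium closes over a stroma that lays down collagen. Growth of this tissue draws on DNA replication, mitosis, histone and sterol synthesis and on the secretory pathway, which makes matrix proteins.

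Between CRC and injury, 481 of the 3722 features with enough counts to be tested differed at an adjusted p-value under 0.05 in edgeR's quasi-likelihood test after Benjamini-Hochberg adjustment (12.9%). Such features are termed called. Of these, 190 were higher in CRC (5.1% of those tested) and 291 were lower (7.82%). Among called features 474 had no overlap between the 3 CRC and the 3 injury libraries, against 1247 over all tested features, or 33.5%. The median log2 fold change, the log2 ratio of CRC to injury, was 1.23 among the higher features and −1.19 among the lower ones, and 0.01 over all features tested. A log2 fold change over 1 was seen in 131 of the higher features, and 176 of the lower ones were under −1. The direction of the excess depended on scaling. When library sizes included the reads outside features, 523 features were called, of which 334 were higher (63.9%) and 189 lower (36.1%), against 39.5% higher and 60.5% lower with TMM. The median of all tested features was then 0.205, and log2 fold changes are given here relative to the TMM median near 0. The count of higher features was 118 without CRC replicate 1, 116 without CRC replicate 2, 111 without injury replicate 1 and 119 without injury replicate 3.

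**Figure D2:**
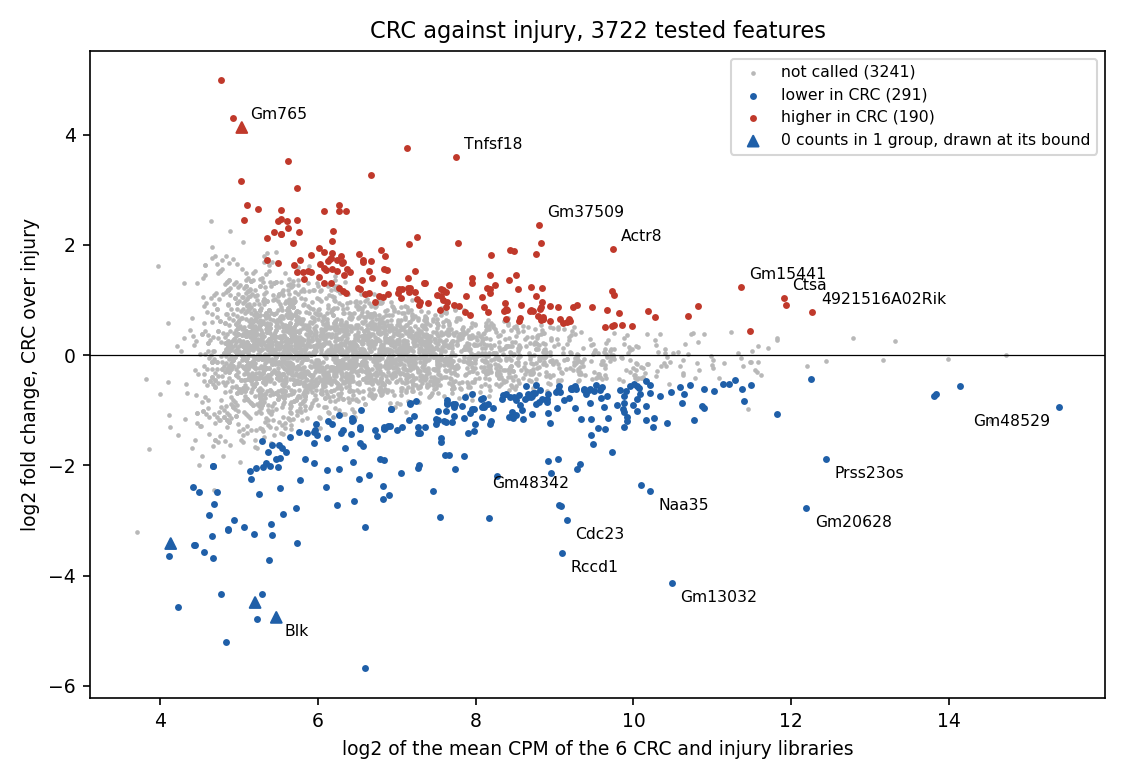
Each point is 1 tested feature, with the log2 of its mean CPM over the 6 libraries on the horizontal axis and the log2 fold change of CRC over injury on the vertical axis. Called features are coloured, 190 higher and 291 lower, and triangles are features at 0 in 1 group, drawn at their bound.

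The sham libraries give a further reference, although sham replicates 2 and 3 stood apart from the other libraries. The feature CT010467.1 held 10.9% and 12.4% of their counts, against 1.54% in sham replicate 1 and 0.807% to 4.55% in the injury and CRC libraries. Their TMM factors were both 0.845, against 0.94 in sham replicate 1, and sham replicate 2 had 7805 features with a count. Without these 2 libraries in the fit, also chosen after seeing the data, 761 features were called between CRC and injury, 311 higher and 450 lower. The sham mean was nearer to injury than to CRC for 431 of the 481 called features (89.6%), 155 of them higher in CRC and 276 lower. With 1 sham library in place of the mean, chosen likewise, the count was 429 for sham replicate 1, 394 for sham replicate 2 and 407 for sham replicate 3. For 418 called features all 3 sham libraries lay beyond the 3 CRC libraries on the side of injury. These counts were taken over called features only, which were selected for a difference between CRC and injury, and the shares over all tested features were not counted. The contrasts of CRC with injury and with sham share the CRC libraries, so these counts describe the levels and are no separate test.

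Features opposite genes of cell division were among the largest decreases in CRC. The proliferation list had 5 tested opposite features, and all 5 fell, with a median log2 fold change of −3.00 against 0.01 over all features. This list, like the others, was chosen with earlier results of these data known, so its count is no separate evidence. The share called lower was 7.82% over all features, 9.85% of those with an opposite exon and 24.5% of those with a mean of 100 to 500 counts. Rccd1, opposite Prc1, whose product bundles the microtubules of the spindle midzone, had 310, 219 and 284 counts in the injury libraries and 18, 34 and 25 in the CRC libraries. Every CRC library was far under every injury library, and the sham libraries had 241, 119 and 179 counts. Its mean was 84.0 ± 26.6 CPM in CRC and 1014 ± 170 CPM in injury (SD, n = 3 each), a log2 fold change of −3.59 (SE 0.25). The adjusted p was 8.59e-12 (edgeR quasi-likelihood test, Benjamini-Hochberg adjustment). Cdc23, opposite the mitotic kinesin gene Kif20a, had 224, 278 and 309 counts in injury and 50, 28 and 38 in CRC. It fell by 3.00 on the log2 scale (SE 0.22), with sham counts of 204, 147 and 141 on the injury side. In bulk tissue, fewer cells of a type and less RNA per cell cannot be told apart, here and in the results that follow.

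Kctd18, not a member of the proliferation list, lies opposite Sgo2a, which protects cohesion at centromeres. It had 446, 545 and 481 counts in injury and 84, 130 and 116 in CRC, and fell by 2.35 (SE 0.20). Exosc9, opposite the cyclin gene Ccna2, had 61, 29 and 50 counts in injury and 5, 11 and 2 in CRC. The groups did not overlap, and the log2 fold change was −3.12 (SE 0.47), or −3.88 without CRC replicate 2. LTO1, opposite Ccnd1, which encodes the G1 cyclin D1, had 404, 338 and 390 counts in injury against 190, 228 and 224 in CRC, a log2 fold change of −1.01 (SE 0.15). The 5th member of the list, Ap4m1, opposite the helicase gene Mcm7 and also Taf6, fell by 0.62 (SE 0.18), with an adjusted p of 0.0213 (edgeR quasi-likelihood test, Benjamini-Hochberg adjustment). That call was lost without CRC replicates 1 or 2 or injury replicates 1 or 3, with adjusted p-values of 0.0711 to 0.149, and with library sizes that include reads outside features, at 0.144 (edgeR quasi-likelihood test, Benjamini-Hochberg adjustment). Under that scaling 4 of the 5 members were called. Of the 4 tested features named for proliferation genes themselves 0 were called, or 1, lower, without any 1 sham replicate, with 15 of the list's 33 features at 0 in all 6 libraries, and the median log2 fold change of the tested ones was −0.44, with 1 at an unadjusted p under 0.05 and 0 called by DESeq2.

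Exosc9 above and the further features of this kind given here were picked after their values were seen. Gm10143, opposite Fen1, the nuclease that trims Okazaki fragments, had 329, 238 and 301 counts in injury and 114, 103 and 107 in CRC. It fell by 1.61 (SE 0.17), and sham libraries had 336, 339 and 361 counts. It was the 1 called of 4 tested opposite features of a published list of S and G2/M phase genes, whose median was −0.43. That list was also added after values were seen, and the share of its own features called lower was near the 7.82% over all features. Of its 9 tested own features, with a median of −0.15, 1 was lower, the replication gene Gins2, with 825, 632 and 781 counts in injury and 622, 593 and 564 in CRC (log2 fold change −0.53, SE 0.15). Its adjusted p of 0.0189 became 0.0631 to 0.191 without CRC replicates 2 or 3 or injury replicates 1 or 3 and with library sizes that include reads outside features (edgeR quasi-likelihood test, Benjamini-Hochberg adjustment). Under that scaling 0 own features of the list were called lower and 1 higher. Lcorl, opposite the condensin gene Ncapg, had 55, 36 and 48 counts in injury and 22, 10 and 11 in CRC. Ubxn6, opposite Chaf1a, which places histones on new DNA, had 122, 101 and 103 counts in injury and 67, 41 and 54 in CRC. Both were separated between the groups, with log2 fold changes of −1.88 and −1.20. Sap18, opposite the kinetochore gene Ska3, fell by 3.06, although it had only 14, 30 and 17 counts in injury and 3, 2 and 3 in CRC. It would have been too low to test without its injury counts. A list of chromosome segregation and repair genes, written with the called features in view, had 23 tested opposite features, of which 17 were lower and 1 higher, with a median of −1.35. With library sizes that include reads outside features 11 were lower, as were 11 without CRC replicate 2, injury replicate 1 or injury replicate 3. The higher one was not called without CRC replicates 1 or 2 or injury replicates 1 or 3, and it would have been too low to test without its CRC counts. Its 20 tested own features had 2 higher and 2 lower and a median of 0.43, shares near those over all features, 5.1% higher and 7.82% lower. Without CRC replicates 1 or 3 or injury replicate 1 there was 1 higher, and without sham replicates 1 or 2 there were 4. Without CRC replicates 2 or 3 or injury replicates 1 or 3 there was 1 lower. With library sizes that include reads outside features there were 4 higher and 1 lower. The 2 higher own features were Cep72 and Cenpp, with log2 fold changes of 1.95 and 1.41. Both would have been too low to test without their CRC counts. Cenpp was not called without any 1 CRC replicate or injury replicates 1 or 3. Rad54l, a gene of homologous recombination, was one of the lower ones, with 397, 416 and 387 counts in injury and 199, 273 and 254 in CRC (log2 fold change −0.92, SE 0.16). Cdk4, the partner kinase of cyclin D1, was also lower by its own feature, with 315, 290 and 323 counts in injury and 207, 201 and 158 in CRC. These own features have exons on the other strand too. Cdk4 shares 641 bases with Tspan31, Gins2 2758 with Gse1 and Rad54l 1184 with Lrrc41, which was itself called lower.

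Short stretches at the start of Prc1 and Ncapg are shown because both genes hold a CCAAT box and the hexamer TTTGAA of cell cycle promoters within 250 bases before a start that RefSeq gives. The first Prc1 exon of GENCODE M21 begins earlier, at base 80294450, inside the stretch shown and inside its TTTGAA. Sequences are from RefSeq on GRCm38.p6, on the plus strand at chr7:80294399-80294475 and chr5:45669734-45669924, with matches on either strand in capitals (CCAAT also reads as ATTGG).
Prc1: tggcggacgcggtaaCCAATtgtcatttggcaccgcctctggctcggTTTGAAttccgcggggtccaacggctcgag
Ncapg: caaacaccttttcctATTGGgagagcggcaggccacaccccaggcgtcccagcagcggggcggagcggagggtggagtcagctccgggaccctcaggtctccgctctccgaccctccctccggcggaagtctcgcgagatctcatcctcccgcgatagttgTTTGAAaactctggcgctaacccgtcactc
Of 21 genes opposite lower features of the division lists, 17 had a promoter in the table, with 22 promoters in all. CCAAT stood in 54.5% of these and TTTGAA in 18.2%, and both in 9.09%, against 33.8%, 16.0% and 5.55% of all 32851 promoters. A match describes the letters and is no sign of binding.

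Histones for new DNA are made from clustered genes in S phase. Gm20628, opposite Hist2h3b and Hist2h2bb at chr3:96267075-96270289, had 2157, 2300 and 2105 counts in injury and 292, 431 and 368 in CRC. The groups lay far apart, while the sham libraries spread widely, with 2445, 683 and 1121 counts. It fell by 2.78 (SE 0.41), from 8188 ± 407 to 1190 ± 233 CPM. The feature opposite Hist1h4b, 4930558J22Rik, had 45, 42 and 69 counts in injury and 6, 15 and 8 in CRC and fell by 2.60 (SE 0.38). These were the 2 called of 5 tested opposite features of the list, whose median was −1.58, against 7.82% lower over all features. Of 70 histone features themselves 1 could be tested, Hist1h1e, which was not called.

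Of 5 tested features opposite genes that answer to oestrogen and progesterone, 4 were lower in CRC. Over all features 7.82% were lower, and 9.85% of those with an opposite exon. By depth the share was 24.5% at a mean of 100 to 500 counts and 30.5% over 500. Gm13032, opposite Padi1, which encodes an enzyme that turns arginine into citrulline, lies at chr4:140810993-140817511. The injury libraries had 905, 485 and 792 counts on it, and the CRC libraries 77, 37 and 27. All injury and sham libraries were above all CRC libraries. It had the largest decrease of the called features that averaged 50 or more counts, −4.14 on the log2 scale (SE 0.39), from a mean of 2719 ± 798 CPM in injury to 154 ± 86.0 CPM in CRC, and sham stood at 4010 CPM. Prss23os, opposite the secreted protease gene Prss23 at chr7:89510007-89511873, had 2304, 2427 and 2324 counts in injury and 720, 765 and 691 in CRC. The replicates of each group were close together, and the sham counts of 2535, 1950 and 2205 stood with injury. It fell by 1.89 (SE 0.12), with an adjusted p of 4.84e-12 (edgeR quasi-likelihood test, Benjamini-Hochberg adjustment). Gm48140, opposite Greb1, an early target of the oestrogen receptor, had 78, 59 and 84 counts in injury and 46, 40 and 51 in CRC (log2 fold change −0.88, SE 0.24). Its adjusted p was 0.012, and 0.0717 without CRC replicate 2, 0.0774 without injury replicate 3 and 0.0626 with library sizes that include reads outside features (edgeR quasi-likelihood test, Benjamini-Hochberg adjustment). With LTO1 opposite Ccnd1, 4 of the 5 tested opposite features of the sex steroid list fell, with a median of −1.01. The 5th, Gm9747 opposite the insulin receptor substrate gene Irs1, had a log2 fold change of 0.31 and an adjusted p of 0.112 (edgeR quasi-likelihood test, Benjamini-Hochberg adjustment). With the other library sizes 3 members were called lower and 1 higher. Of the 4 tested genes themselves 1 was lower, Padi2, with 9, 10 and 14 counts in injury and 4, 4 and 1 in CRC. That call was marginal at an adjusted p of 0.0494 and was lost when any 1 CRC or injury replicate or sham replicate 3 was left out, with 0.066 to 0.18, with the replicate number as a block, at 0.0828, and with library sizes that include reads outside features, at 0.0767 (edgeR quasi-likelihood test, Benjamini-Hochberg adjustment).

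All 4 tested features opposite genes of cholesterol synthesis fell, with a median of −1.58. Among all features 7.82% were called lower, as were 9.85% of those with an opposite exon and 24.5% of those with a mean of 100 to 500 counts. Gm48342, opposite Hmgcs1, which makes HMG-CoA for the sterol pathway, had 271, 297 and 242 counts in injury and 66, 80 and 74 in CRC. The sham libraries, with 540, 516 and 459 counts, were above both groups. Its log2 fold change was −2.07 (SE 0.17). Akap9, opposite the sterol demethylase gene Cyp51, had 37, 42 and 21 counts in injury and 18, 23 and 16 in CRC. Ctsb, opposite the squalene synthase gene Fdft1, had 20, 33 and 31 counts in injury and 14, 20 and 11 in CRC. Both calls were weak, at adjusted p-values of 0.0453 and 0.0391 (edgeR quasi-likelihood test, Benjamini-Hochberg adjustment). The first was lost without any 1 CRC replicate or injury replicates 1 or 2 (0.0631 to 0.195), and the second without CRC replicates 1 or 3 or injury replicates 2 or 3 (0.129 to 0.18) (edgeR quasi-likelihood test, Benjamini-Hochberg adjustment). With the replicate number as a block both were lost, at 0.062 and 0.06 (edgeR quasi-likelihood test, Benjamini-Hochberg adjustment). DESeq2 did not call Akap9, at an adjusted p of 0.0582 (DESeq2 Wald test, Benjamini-Hochberg adjustment). With library sizes that include reads outside features, 2 of the 4 were called, as were 2 with the block and 2 without CRC replicate 1, CRC replicate 3 or injury replicate 2. The 4 tested genes themselves had a median of 0.20 and 0 calls by edgeR or DESeq2, 2 of them at an unadjusted p under 0.05, and 13 of the 23 were at 0 in all 6 libraries. Of the 4, 1 was called lower without CRC replicate 2, sham replicate 1 or sham replicate 2, and 1 higher with the other library sizes.

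Of the 5 most counted features that fell, 3 were opposite genes of smooth muscle or cell adhesion, and the others were Prss23os and Gm20721. Gm48529, opposite Tagln, an actin-binding protein of smooth muscle, at chr9:45930112-45933738, had 15430, 14898 and 15096 counts in injury and 9380, 8879 and 8811 in CRC. Both groups were tight, and the sham libraries had more, with 21571, 17779 and 18231 counts. The mean was 29506 ± 946 CPM in CRC and 56668 ± 610 CPM in injury, with a log2 fold change of −0.94 (SE 0.10). Taf10, opposite the integrin-linked kinase gene Ilk, had 4853, 4800 and 4842 counts in injury and 3128, 3745 and 3308 in CRC. Ap3m1, opposite the vinculin gene Vcl, had 4692, 4996 and 4780 counts in injury and 3048, 3658 and 3183 in CRC. Their log2 fold changes were −0.70 and −0.74 (SE 0.12 for each). Pcsk7, which overlaps Rnf214 and Tagln, had 30, 27 and 25 counts in injury and 15, 7 and 11 in CRC, and its adjusted p rose from 0.00934 to 0.0705 without CRC replicate 2 (edgeR quasi-likelihood test, Benjamini-Hochberg adjustment). These were 4 of 8 tested opposite features of the smooth muscle list, whose median was −0.72. The share called lower was 7.82% over all features and 30.5% of those over 500 counts. E130310I04Rik, opposite the myosin kinase gene Mylk, had a log2 fold change of 0.39 and was not called, at an adjusted p of 0.0657 (edgeR quasi-likelihood test, Benjamini-Hochberg adjustment). With library sizes that include reads outside features 1 member was called higher. Over all 10 opposite features of the list the counts came to 25858, 25411 and 25636 in injury and 16571, 17253 and 16200 in CRC.

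The smooth muscle genes themselves had far fewer counts. Their 18 features summed to 263, 293 and 292 counts in injury and 213, 195 and 276 in CRC, and the 7 tested had a median of −0.35. Tagln and Ilk were among the 6 not called, at log2 fold changes of −0.77 and −0.81. Over all features 7.82% were called lower. The caldesmon gene Cald1, with no gene on the other strand, was the 1 called, with 109, 120 and 118 counts in injury and 58, 63 and 114 in CRC. CRC replicate 3 stood near the injury libraries. The adjusted p was 0.0341, and it was 0.0622 to 0.207 without CRC replicates 1 or 2 or any 1 injury replicate and 0.128 with library sizes that include reads outside features (edgeR quasi-likelihood test, Benjamini-Hochberg adjustment). DESeq2 did not call it, at an adjusted p of 0.0507 (DESeq2 Wald test, Benjamini-Hochberg adjustment). Gm20721, opposite Gnas, which encodes the stimulatory G protein, was another of the most counted decreases, with 5348, 6100 and 5917 counts in injury and 4125, 4858 and 4418 in CRC (log2 fold change −0.57, SE 0.12).

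Among collagen genes, Col5a1 and the collagen VI genes Col6a1, Col6a2 and Col6a3 fell by their own features. Collagen VI forms beaded microfibrils around cells. Col6a2, with no gene on the other strand at chr10:76595762-76623630, had 85, 105 and 99 counts in injury and 26, 24 and 43 in CRC. The sham libraries had 94, 241 and 163 counts, so all CRC libraries were under all others. It fell by 1.83 (SE 0.31), with an adjusted p of 0.000149 (edgeR quasi-likelihood test, Benjamini-Hochberg adjustment). Col6a1 had 20, 21 and 21 counts in injury and 4, 3 and 6 in CRC, and Col6a3 had 11, 26 and 11 against 2, 1 and 3. Col5a1, which starts the fibrils of collagen I, had 26 counts in the injury group and 2 in the CRC group, a ratio of 14.9 with a 95% counting interval of 3.73 to 129. Its adjusted p of 0.0189 became 0.0541 to 0.0941 when any 1 CRC replicate or injury replicate 1 or 3 was left out (edgeR quasi-likelihood test, Benjamini-Hochberg adjustment). These were 4 of 8 tested matrix genes, and the median was −1.64. For comparison, 7.82% of all features and 9.85% of those with an opposite exon were called lower. Of 6 tested opposite features of the list 3 fell, Gm36993 and Gm47575 opposite Col6a4 and Gm9913 opposite the fibrillin gene Fbn1. Gm36993 had 178, 177 and 197 counts in injury and 92, 78 and 100 in CRC, and Gm9913 had 72, 64 and 76 against 41, 45 and 34. With library sizes that include reads outside features 4 and 3 members were again called lower, and 1 opposite feature was called higher. Col1a1, the main fibrillar collagen of scars, had 5, 6 and 11 counts in injury and 3, 2 and 4 in CRC and was not called (adjusted p = 0.208, edgeR quasi-likelihood test, Benjamini-Hochberg adjustment).

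Against 7.82% lower over all features, 9 of 15 tested features opposite genes of the endoplasmic reticulum, where secreted proteins are folded, were lower. They were chosen, like their list, after values were seen. Snx22, opposite the cyclophilin B gene Ppib, had 1229, 1365 and 1344 counts in injury and 581, 806 and 758 in CRC (log2 fold change −1.07, SE 0.22). Gm44170, opposite the translocon gene Sec61a1, had 323, 231 and 303 counts in injury and 132, 121 and 138 in CRC. 1810014B01Rik, opposite the chaperone gene Hsp90b1, had 472, 400 and 518 counts in injury and 171, 236 and 239 in CRC. In each of these the groups did not overlap. Rrbp1, which holds ribosomes at this membrane and has no opposite exon, had 280, 344 and 280 counts in injury and 130, 145 and 195 in CRC, and fell by 1.14 (SE 0.17). Of the opposite features of the list 0 were called higher, and the median was −0.97. The 9 calls became 6 with the other library sizes, 6 without CRC replicate 2 or injury replicate 3, and 5 without CRC replicate 1, CRC replicate 3 or injury replicate 2. Of 10 tested own features Rrbp1 was the 1 called, a share near the 7.82% lower over all features, and their median was 0.32. Naa35, opposite the Golgi gene Golm1 and also on this list, had 567, 542 and 506 counts in injury and 103, 127 and 105 in CRC, a log2 fold change of −2.46 (SE 0.18).

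Some of the larger decreases had no exon on the other strand. Prune2 had 105, 172 and 129 counts in injury and 41, 35 and 25 in CRC, and fell by 2.20 (SE 0.25). Gm14377, within an intron of the phosphatase gene Ptpn5 on the other strand, had 136, 130 and 141 counts in injury and 20, 15 and 25 in CRC (log2 fold change −2.95, SE 0.25). Gm43557 and Gm43708 lie in introns of Sdk1, a gene of cell adhesion. Gm43557 had 259, 263 and 221 counts in injury and 34, 67 and 27 in CRC, and Gm43708 had 80, 80 and 105 against 10, 17 and 12. Their log2 fold changes were −2.73 and −2.95. Gm43556 and Gm6433, a further pair in Sdk1 introns chosen after their values were seen, fell by 2.14 and 1.81. Gm48346, in an intron of Tnfaip8l3, had 209, 187 and 251 counts in injury and 55, 53 and 59 in CRC. Grin2b, a glutamate receptor gene, and Gm48840, opposite the adhesion gene Mpzl2, do have opposite exons and were noted after their values were seen. Grin2b had 209, 332 and 278 counts in injury and 76, 89 and 73 in CRC, and Gm48840 had 340, 371 and 339 against 119, 117 and 117.

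Tnfsf18 had the largest increase of the called features that averaged 50 or more counts. It encodes a ligand of the TNF family that binds the receptor GITR on T cells, and it lies at chr1:161494655-161505290 with no gene on the other strand. The injury libraries had 9, 11 and 6 counts and the CRC libraries 134, 105 and 125. Every CRC library was far above the injury libraries and above the sham libraries, which had 19, 14 and 23 counts. The mean was 397 ± 46.8 CPM in CRC and 32.4 ± 9.47 CPM in injury (SD, n = 3 each), 12.1-fold higher, or 3.59 on the log2 scale (SE 0.32). The adjusted p was 1.67e-09 (edgeR quasi-likelihood test, Benjamini-Hochberg adjustment). Of the 21 leukocyte genes 1, Csf1r, was tested, and it had an unadjusted p under 0.05 but was called by neither edgeR nor DESeq2. Without injury replicate 2, sham replicate 1 or sham replicate 2 edgeR called it lower.

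Other increases lay opposite genes or stood alone. Gm37509, opposite Sbspon at chr1:15853331-15856499, had 59, 26 and 31 counts in injury and 189, 270 and 225 in CRC, with sham at 36, 31 and 31. It rose by 2.36 on the log2 scale (SE 0.25). Gm42944, with no opposite gene, had 38, 61 and 43 counts in injury and 245, 189 and 234 in CRC. Actr8, whose last exon overlaps Il17rb, the receptor for interleukin 25, had 108, 74 and 103 counts in injury and 310, 463 and 469 in CRC, a log2 fold change of 1.93 (SE 0.20). In these 3 the groups were separated and sham stood on the side of injury. Ldah, of lipid droplets, had 24, 50 and 42 counts in injury and 156, 206 and 140 in CRC. Lef1os1 had 27, 41 and 54 counts against 181, 155 and 181, and Gm15462, opposite Lrrc31, had 47, 53 and 52 against 172, 233 and 217. Smaller increases chosen by the same rule were those of Sorbs2, Cyren opposite Tmem140, Cap1 opposite the lysosomal gene Ppt1 and Hoxaas2, with log2 fold changes of 1.81, 1.45, 1.45 and 1.40. Without an opposite exon there were also Gm8616, with 67, 40 and 35 counts in injury and 136, 133 and 123 in CRC, and Gm28720, with 32, 34 and 25 against 112, 45 and 84. The adjusted p of Gm28720 was 0.0105, and 0.143 without CRC replicate 1, 0.055 without CRC replicate 3 and 0.077 without injury replicate 3 (edgeR quasi-likelihood test, Benjamini-Hochberg adjustment).

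**Figure D3:**
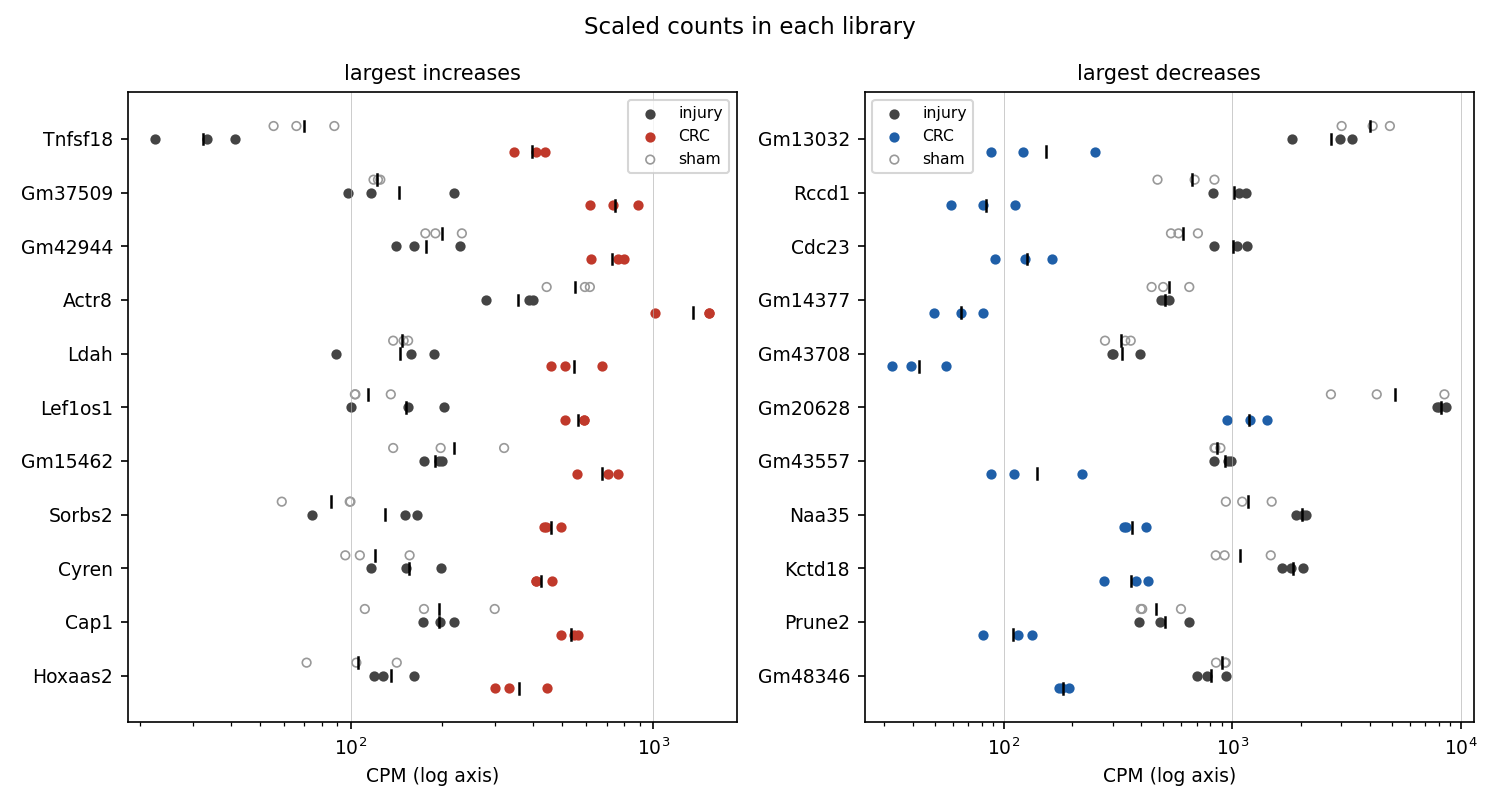
Expression in each library in CPM on a log axis for features named in the text, with injury as filled dark points, CRC as coloured points and sham as open points, and a black tick at each group mean. For Tnfsf18 the CRC mean is 397 CPM and the injury mean 32.4 CPM, and for Rccd1 they are 84.0 and 1014 CPM.

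The increases with the most counts were smaller. The feature 4921516A02Rik, opposite the pyridoxal kinase gene Pdxk, had 1041, 929 and 951 counts in injury and 2031, 1836 and 1863 in CRC, a log2 fold change of 0.78 (SE 0.12). Sphk2, opposite the clock-controlled factor Dbp and the ribosomal gene Rpl18, had 656, 735 and 773 counts in injury and 1621, 1430 and 1633 in CRC. Ctsa, opposite the phospholipid transfer gene Pltp, had 627, 682 and 710 counts in injury and 1374, 1616 and 1760 in CRC. Neither overlapped between groups, and their log2 fold changes were 0.92 and 1.04. Gm15441, opposite Txnip, whose product binds thioredoxin and limits glucose uptake, had 372, 458 and 432 counts in injury and 1169, 1112 and 1109 in CRC. Its sham counts were 436, 356 and 301, and it rose by 1.23 (SE 0.14), with an adjusted p of 1.98e-07 (edgeR quasi-likelihood test, Benjamini-Hochberg adjustment). 4932441J04Rik, opposite the protocadherin gene Pcdh7, had 693, 623 and 634 counts in injury and 1051, 998 and 967 in CRC, with a log2 fold change of 0.43. Its adjusted p of 0.0265 became 0.0749 to 0.142 when any 1 CRC or injury replicate was left out, 0.0508 with the replicate number as a block and 0.28 with no filter on low counts (edgeR quasi-likelihood test, Benjamini-Hochberg adjustment).

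Txnip belongs to genes that FoxO factors and growth arrest switch on, and a list of these was written after values were seen. Of its 7 tested opposite features 4 were higher and 0 lower, with a median of 0.88, against 5.1% higher over all features. Without injury replicate 2 there was 1 lower. Gm15943, opposite Klhl38 and the ubiquitin ligase gene Fbxo32, had 3, 6 and 6 counts in injury and 112, 72 and 55 in CRC. The sham libraries had 15, 9 and 11 counts, and the log2 fold change was 3.77 (SE 0.41). Gm9968, opposite the repressor gene Zbtb20, had 132, 150 and 120 counts in injury and 298, 295 and 251 in CRC. The 4th, Gm9920 opposite Deptor, had an adjusted p of 0.0381 that rose to 0.0761 to 0.205 without any 1 CRC replicate or injury replicates 1 or 3, and to 0.0555 with the replicate number as a block (edgeR quasi-likelihood test, Benjamini-Hochberg adjustment). Among the 3 tested genes themselves Klf11 was higher, with 5, 10 and 5 counts in injury and 37, 30 and 44 in CRC. Klf11, Gm15943 and Gm9920 would have been too low to test without their CRC counts, so these calls are no separate evidence. Gadd45a was lower, with 52, 44 and 36 counts in injury and 11, 13 and 9 in CRC. For circadian genes, 1 of 4 tested opposite features was called, Sphk2 opposite Dbp, and 0 of 4 genes themselves, a share near the 12.9% called over all features. None of the 4 genes reached an unadjusted p of 0.05 in edgeR or a call in DESeq2. Without injury replicate 3, or with the other library sizes, 2 opposite features were called.

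Of Hox features, 2 of 4 tested opposite ones and 1 of 9 tested own ones were called, each higher, against 12.9% called over all tested features. The share of the own features was near that background. Hox genes set position along the reproductive tract. Hoxaas2 and 5730596B20Rik, both opposite Hoxa3, were the 2 called of 4 tested opposite features, whose median was 0.84. Hoxaas2 had 32, 34 and 43 counts in injury and 102, 135 and 92 in CRC, and 5730596B20Rik had 51, 76 and 53 against 109, 181 and 184. Hoxd3os1 was the 1 called of 9 tested own features, with 66, 112 and 121 counts in injury and 198, 219 and 212 in CRC, and its adjusted p rose from 0.00333 to 0.0622 without injury replicate 1 (edgeR quasi-likelihood test, Benjamini-Hochberg adjustment). Without sham replicates 1 or 2, or with the other library sizes, 2 own features were called. Gm37587, opposite Sox17, a factor of the endometrial epithelium and its glands, at chr1:4496551-4499558, had 14, 17 and 14 counts in injury and 83, 60 and 66 in CRC. Sham was at 22, 23 and 24 counts, and the log2 fold change was 2.01 (SE 0.32). Gm48159, opposite Rspo3, which strengthens Wnt signals, had 9, 12 and 16 counts in injury and 63, 60 and 38 in CRC, with sham at 25, 43 and 15. B130024G19Rik, opposite Nr2f2, a stromal factor downstream of hedgehog signals, rose by 0.58 at an adjusted p of 0.0442, and lost the call without any 1 CRC replicate, injury replicates 1 or 3 or sham replicate 3 (0.0617 to 0.343), and with the replicate number as a block (0.0562) (edgeR quasi-likelihood test, Benjamini-Hochberg adjustment). DESeq2 did not call it, at an adjusted p of 0.0565 (DESeq2 Wald test, Benjamini-Hochberg adjustment). Gm37587 was the 1 called of 2 tested opposite features of the epithelium list, and the other, Gm26642 opposite Elf3 and Rnpep, had a log2 fold change of −0.55. Gm48159 was the 1 called of 3 of the Wnt list, whose median was −0.20, and B130024G19Rik the 1 called of 4 of the stroma list and of 2 of the hedgehog list. Over all features 12.9% were called. Without sham replicates 1 or 2, or with the other library sizes, 2 opposite features of the stroma list were called.

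Markers of cell types were sparse. Epithelial genes themselves held 15, 21 and 16 counts in the injury libraries and 41, 38 and 24 in the CRC libraries over 22 features, of which 8 were at 0 in all 6 and Sox17 was the most counted. Their part in the results was not tested. Leukocyte genes held 72, 52 and 71 counts in injury and 66, 46 and 51 in CRC, with 11 of 21 at 0, and endothelial genes held 36, 38 and 31 against 31, 34 and 37. Stromal genes held 75, 97 and 68 counts in injury and 118, 126 and 126 in CRC. Red blood cell genes had 6 of 7 at 0, and all 37 mitochondrial features were at 0 in the 6 libraries. No member of the mesothelium and nerve lists had enough counts to be tested. In the lists of red blood cells, endothelium, fat, immediate early genes, interferon response, the TGF-beta and BMP pathway, nuclear long non-coding RNA and abundant housekeeping genes, edgeR called 0 features. Together with the leukocyte and hub gene lists they had 29 tested features, of which 2 had an unadjusted p under 0.05 and DESeq2 called 0. Of splicing factors edgeR and DESeq2 called 0 of 8 tested genes, 0 of which reached an unadjusted p of 0.05. Of 6 opposite features edgeR called 1, Mettl23 opposite Srsf2, with 533, 425 and 587 counts in injury and 266, 224 and 263 in CRC. This share was near the 15.1% called of all features with an opposite exon. DESeq2 called 2, as did edgeR without sham replicates 1 or 2. Of ribosomal protein genes 0 of 5 were called by either tool or reached an unadjusted p of 0.05, and of 9 opposite features Sphk2 was higher and Tlcd1, opposite Rpl23a, lower. The adjusted p of Tlcd1 was 0.0152, and 0.108 without CRC replicate 1, 0.158 without injury replicate 3 and 0.114 with library sizes that include reads outside features (edgeR quasi-likelihood test, Benjamini-Hochberg adjustment).

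**Figure D4:**
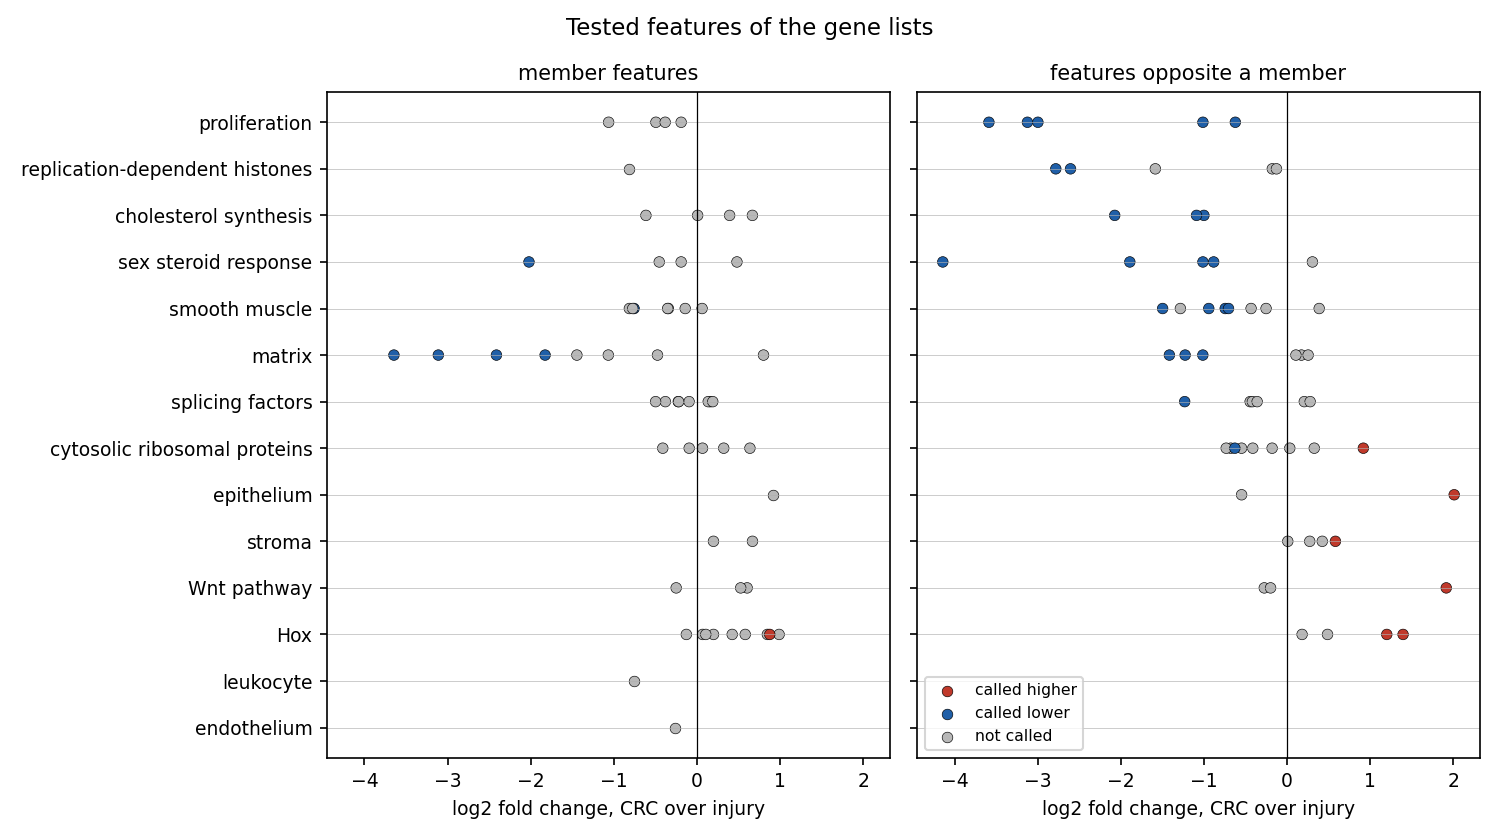
Log2 fold change of CRC over injury for tested members of gene lists, own features on the left and opposite features on the right, with 1 point per feature and called features coloured. All 5 tested opposite features of the proliferation list lie under 0, and 1 feature of the cholesterol list is not shown.

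Genes that the study measured by qRT-PCR were mostly too low to test. The list was chosen by the study on this model and is no separate evidence of direction. Of 15 genes 3 were tested by their own feature, Ccnd1, Col1a1 and Pgr, and 0 were called by edgeR or DESeq2 or reached an unadjusted p of 0.05. Ccnd1 had 93, 97 and 108 counts in injury and 113, 105 and 81 in CRC, and the groups overlapped (log2 fold change −0.19, SE 0.21). Pgr, the progesterone receptor gene, had 57, 49 and 46 counts in injury and 90, 77 and 76 in CRC. Its groups did not overlap, but at a log2 fold change of 0.48 (SE 0.24) the adjusted p was 0.206 (edgeR quasi-likelihood test, Benjamini-Hochberg adjustment). The proliferation marker Mki67 had 13, 5 and 8 counts in injury and 9, 3 and 15 in CRC, and the oestrogen receptor gene Esr1 had 2, 4 and 1 against 5, 1 and 3. The epithelial mucin gene Muc1 had 2, 4 and 2 counts against 6, 5 and 2. At this depth these 3 had too few counts to be tested. Of the opposite features LTO1 fell, as given above, and Apol7d, opposite Fn1, was not called. The qRT-PCR gene Ihh, a hedgehog ligand, had 0 counts in injury and 4, 0 and 2 in CRC, too few to test. Of hub genes named by the study, Thbs1 was not tested, with 0, 1 and 0 counts in injury and 5, 9 and 2 in CRC, a ratio of 14.0 with a 95% counting interval of 2.17 to 586. Gm26771, opposite Sfrp2, was not tested either, with 1, 6 and 6 counts in injury and 8, 23 and 20 in CRC. Sfrp2 itself and the feature opposite Hand2, Hand2os1, were tested and not called, at log2 fold changes of 0.53 and 0.27. Genes of this list were drawn by the study from these libraries. All 481 called features except LTO1 were outside both lists and their opposite features.

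In 4 features chosen after their values were seen, 1 group was at 0. Blk, a kinase gene of B cells, had 19, 22 and 30 counts in injury and 0 in each CRC library, at least 27.1-fold lower against a floor of 3 counts over the group. Its sham counts were 27, 41 and 42. A830036E02Rik, opposite the keratin gene Krt12, had 22, 13 and 24 counts in injury and 0 in CRC, at least 22.5-fold lower. Trmt61a, a tRNA methyltransferase gene, had 3, 9 and 16 counts in injury and 0 in CRC, at least 10.7-fold lower, or 6.86-fold without injury replicate 3. Gm765 had 0 counts in injury and 22, 24 and 14 in CRC, at least 17.5-fold higher. Leaving out 1 library of the group at 0 raises the floor per library and lowered these bounds to 18.0, 15.0, 7.11 and 11.6. Hemk1 was close to this, with 153 counts in the injury group and 3 in the CRC group, a ratio of 58.4 with a 95% counting interval of 19.6 to 286. Its log2 fold change was −5.69, and −6.52 without CRC replicate 1. All 5 were called, but they were chosen for a group at or near 0, so the calls are no separate evidence. Gm765 had 0, 2 and 0 counts in the sham libraries, so only the CRC libraries brought it into the test. A830036E02Rik, with 7, 11 and 5 counts in the sham libraries, would have been too low to test without its injury counts.

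Among 546 pairs of opposite features with both members tested, 137 had 1 member called and 10 had both. In 4 of the 10 the members moved the same way and in 6 in opposite ways. Pln, which encodes the inhibitor of the calcium pump of muscle, had 70, 83 and 68 counts in injury and 172, 227 and 192 in CRC, while Gm47644, opposite it, had 140, 127 and 111 against 70, 72 and 70. Their log2 fold changes were 1.22 (SE 0.20) and −1.03 (SE 0.20), and neither overlapped between the groups. This pair was chosen after its values were seen.

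The share called was counted by kind of feature, and kinds also differed in depth, with a median of 30.5 counts for features with an opposite exon, 21 for those at an opposite intron and 16.7 for those with no opposite gene. Differences between kinds were not tested. Of 2182 tested features with an opposite exon 15.1% were called, 114 higher and 215 lower. Those within or across an intron of an opposite gene had 12% called, 42 higher and 36 lower. Of 807 with no opposite gene 8.05% were called, 31 higher and 34 lower. By depth, the share was 6.74% under a mean of 10 counts, 6.23% from 10 to 20 and 9.81% from 20 to 50. It was 17.9% from 50 to 100, 36% from 100 to 500 and 40.7% over 500 counts. By chromosome, 19.9% of the tested features of chromosome 13 were called, 18 higher and 12 lower, and 3.28% of those of chromosome X, 0 higher and 2 lower. The shares of chromosomes were not tested against each other.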

How the data were processed

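RNA of uterine horns was sequenced by the authors with 1 library per mouse, and the sample labels gave groups and replicate numbers. The authors deposited raw counts per feature and did not normalize them. The submitters' notes name HISAT2 2.1.0 and StringTie 2.1.1. The files have the layout of HTSeq output, and its version and strand setting are not given in the sources used here. Records outside features were dropped, and those in no feature were 90.4% to 91.6% of a library of the 6. Counts of all 9 libraries were fitted in R 4.3.3 with edgeR 4.0.16 (filterByExpr, TMM, robust quasi-likelihood test, Benjamini-Hochberg adjustment at 0.05, no covariates), and the contrast was CRC minus injury. DESeq2 1.42.0 was an alternative. Python 3.11.15 with pandas 2.3.3, numpy 2.4.6 and matplotlib 3.10.9 made summaries and figures. The fit was tested on simulated counts with 200 changed features. Strain and age of the mice come from the study's methods. The authors name a later annotation than GENCODE M21.

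Named features were, among called ones with a mean of at least 50 counts and no overlap between groups, the 12 largest changes each way; the 5 most counted each way; genes measured by qRT-PCR or named as hubs; up to 4 called members of each of 27 lists; and the 5 largest changes each way without an opposite exon. Members and lists were chosen with earlier results of these data known. A further 5 lists and 40 features were chosen after the values were seen. Selected by this rule, 2 features are not reported here. Alternatives were other scalings, filters, thresholds and tests, fits of fewer libraries or features, and the replicate number as a block.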

Additional observations from a re-analysis of the deposited data

Results flagged for a closer look

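Some features with at least 3 counts in each CRC library had too few libraries with enough counts to enter the test. Of these, 5 were at 0 in every injury and sham library. The difference was not tested. The glucose transporter gene Slc2a2 had 16, 14 and 6 counts in the CRC libraries, 36 in all, at least 10.5-fold higher than a floor of 3 counts over the injury group. Map7 had 6, 5 and 13 counts, 24 in all (at least 6.99-fold), and Gm3045 had 7, 7 and 5, 19 in all (at least 5.53-fold). Gm26647 had 4, 8 and 5 counts, 17 in all (at least 4.95-fold). The pyruvate kinase gene Pklr had 3 counts in each CRC library, 9 in all (at least 2.62-fold). The floors cover counting error only.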

How the results depend on the processing

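In the 24 alternatives 0 called features changed sign. Of named features that were not called, Ccnd1 ranged from −0.29 to 0.00654 and Apol7d from −0.0898 to 0.628. Of the 60 called features named by rule, 41 were called under every alternative that tested them, and 47 when the 2 stricter thresholds are set aside, as were 29 and 32 of the 40 other named ones. Of all 481 called features, 229 were called without each CRC and injury replicate in turn. Counts that moved most were these. With reads outside features added to library sizes 334 were higher and 189 lower, and the median of all features was 0.205. With the CRC and injury libraries alone 708 were called, 336 of them higher. An adjusted p under 0.01 left 289 (104 higher, 185 lower), and an absolute log2 fold change over 1 left 307 (176 lower), both by construction. Testing only features with no exon on the other strand gave 130 (51 higher, 79 lower), with fewer features tested. Leaving out sham 2 and sham 3, added after seeing the data, gave 761 (311 higher, 450 lower). Other causes were not tested. Leaving out each replicate in turn gave 329 to 660 calls, 111 to 278 higher and 214 to 382 lower, and a median of −0.00949 to 0.0109. DESeq2's Wald test called 448, no filter 398 and at least 10 counts in every library 366.

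With the replicate number as a replicate block 425 were called, 163 higher and 262 lower, 421 of them shared. Same-numbered CRC and injury libraries deviated together only weakly, with correlations across features of 0.0383, 0.0801 and 0.00851, so the numbers were not taken to pair mice, although each CRC library correlated best with its own number.

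The main limits are depth, 3 mice a group, and strand. At most 0.833% of records lay on features, and most marker genes were under the limit for testing. Which gene of an overlapping pair the reads on a feature came from cannot be told. Cells of the graft cannot be identified. The labels of the injury and CRC libraries were not checked, since 0 of the genes measured by qRT-PCR were called by their own feature. Of these, Col1a1 and Pgr had log2 fold changes of −1.44 and 0.48. Sham lay nearer to injury for 431 of the 481 called features. Whether the 2 labels were exchanged was not tested, and an exchange would turn every direction given.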
